A study of Mus musculus with 30 samples.

Results

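The genes described here are 32 genes of the cellular response to low oxygen: 3 subunits of the hypoxia-inducible factors (HIF), 6 oxygen sensors and other regulators of HIF, and 23 targets outside glycolysis. They were chosen by name from the deposited count table, which lists 46603 genes, and each of the 32 names matched 1 row. RNA was measured in bulk in tumour-associated macrophages sorted from subcutaneous 3LL-R tumours (a Lewis lung carcinoma line) of wild-type C57BL/6 mice. The macrophages were sorted by surface MHC class II into MHC-IIhi and MHC-IIlo cells. Each subset was lysed at once after the sort ("fresh"), or kept in culture for 24 h without added lactate ("no-lactate") or with 20 mM sodium L-lactate ("lactate"), with 5 biological replicates in each of the 6 groups. Fresh libraries came from 30000 cells and cultured ones from 250000, and the 2 kinds were lysed differently, so time in culture, cell number and lysis cannot be told apart. The oxygen level of the culture is not given in the sources used here. Replicates are named below by the numbers in the headers of the count table (1 to 5 in fresh cells, and 5 numbers between 1 and 7 in cultured cells).

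HIF is a transcription factor made of an oxygen-regulated alpha subunit (HIF-1alpha from Hif1a, HIF-2alpha from Epas1) and a constant partner from Arnt. In oxygen, the prolyl hydroxylases of Egln1, Egln2 and Egln3 mark the alpha subunit for capture by the VHL protein and destruction, and the asparagine hydroxylase of Hif1an blocks its coactivators. In low oxygen the alpha subunit escapes, and HIF turns on genes through a short DNA element, ACGTG or GCGTG. Several regulators, Egln3 among them, are themselves targets, which gives a feedback loop. In tumour macrophages HIF-1alpha is known for driving glycolysis and mitophagy genes. Because the alpha subunit is controlled mainly as a protein, Hif1a mRNA is not a measure of HIF activity.

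The 32 genes are spread over the genome: in the coordinates of the count table (GRCm38), Hif1a lies at chr12:73901375-73947530 and Epas1 at chr17:86753907-86833410, both on the plus strand. Promoter sequences, from RefSeq (GRCm38.p6), were found for 27 of the 32 genes, from 250 bases before to 50 after each start site. The 2 forms of the HIF core element, ACGTG and GCGTG, were searched on both strands, where CACGTG counts once on each strand. At least 1 match stood in the promoter of 24 of the 27 genes (88.9%), against 12628 of all 27025 genes in the table (46.7%) and 6572 of the 9857 genes that were also tested for expression here (66.7%). At least 2 matches stood in 70.4%, 22.9% and 37.7% of these 3 sets. Hif1an, Vhl and Vldlr had no match in this window. Shown is the longest run, within the 250 bases before the start site, that lies in no annotated exon. It is given for the 4 genes with promoters that differed most between the cultured subsets without lactate (Ddit4, Ankrd37, Bnip3 and Ero1l). Plin2, which rose in culture in both subsets, is added. The run of Ero1l begins at base -130, after bases annotated as an Ero1l exon. All 5 lie on the minus strand, they read 5′ to 3′, and capitals mark the core element on either strand.
Ddit4, chr10:59951835-59952020: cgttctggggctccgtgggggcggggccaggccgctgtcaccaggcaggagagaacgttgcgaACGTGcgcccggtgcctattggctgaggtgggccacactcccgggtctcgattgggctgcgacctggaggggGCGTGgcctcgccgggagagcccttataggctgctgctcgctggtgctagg
Ankrd37, chr8:45999868-46000100: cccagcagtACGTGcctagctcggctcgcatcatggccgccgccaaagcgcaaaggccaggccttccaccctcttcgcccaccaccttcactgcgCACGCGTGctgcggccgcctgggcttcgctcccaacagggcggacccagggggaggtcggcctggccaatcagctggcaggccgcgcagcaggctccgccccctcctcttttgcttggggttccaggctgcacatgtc
Bnip3, chr7:138909520-138909756: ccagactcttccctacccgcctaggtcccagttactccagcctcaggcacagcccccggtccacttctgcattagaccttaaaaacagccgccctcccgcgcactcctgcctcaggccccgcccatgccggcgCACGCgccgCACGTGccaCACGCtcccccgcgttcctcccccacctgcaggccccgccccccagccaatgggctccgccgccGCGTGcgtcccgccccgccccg
Ero1l (RefSeq symbol Ero1a), chr14:45318573-45318702: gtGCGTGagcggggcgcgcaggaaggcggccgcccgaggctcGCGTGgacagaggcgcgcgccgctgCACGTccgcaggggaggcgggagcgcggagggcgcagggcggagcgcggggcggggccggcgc
Plin2, chr4:86670061-86670309: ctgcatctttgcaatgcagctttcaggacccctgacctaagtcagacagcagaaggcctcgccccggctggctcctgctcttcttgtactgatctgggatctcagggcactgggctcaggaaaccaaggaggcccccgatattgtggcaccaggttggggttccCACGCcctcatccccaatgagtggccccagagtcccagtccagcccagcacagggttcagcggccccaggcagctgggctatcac
The stretch of Bnip3 held 5 matches, the most of these 5, and those of Ankrd37 and Ero1l held 3 each. Of the 3 matches in the whole Plin2 promoter, the other two form 1 CACGTG across the end of the stretch shown. A match in these letters describes the sequence and does not show that HIF binds there.

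Levels below are CPM, the counts of a gene scaled by the total counts of its library, and levels of different genes are compared only as CPM per kilobase of gene length. In fresh MHC-IIhi cells the highest of the 32 genes per kilobase was Bhlhe40, a transcriptional repressor, with a mean of 193 CPM per kilobase. It was followed by Hilpda, which inhibits fat breakdown at lipid droplets, with 163, and by Plin2, which coats lipid droplets, with 118. Hif1a stood at 86.2 CPM per kilobase and Epas1 at 0.789 in the same cells. Vldlr, a lipoprotein receptor, was close to absent in all 30 libraries, where its highest level was 1.42 CPM. After culture without lactate Plin2 led in MHC-IIlo cells with 581 CPM per kilobase.

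**Figure D1:**
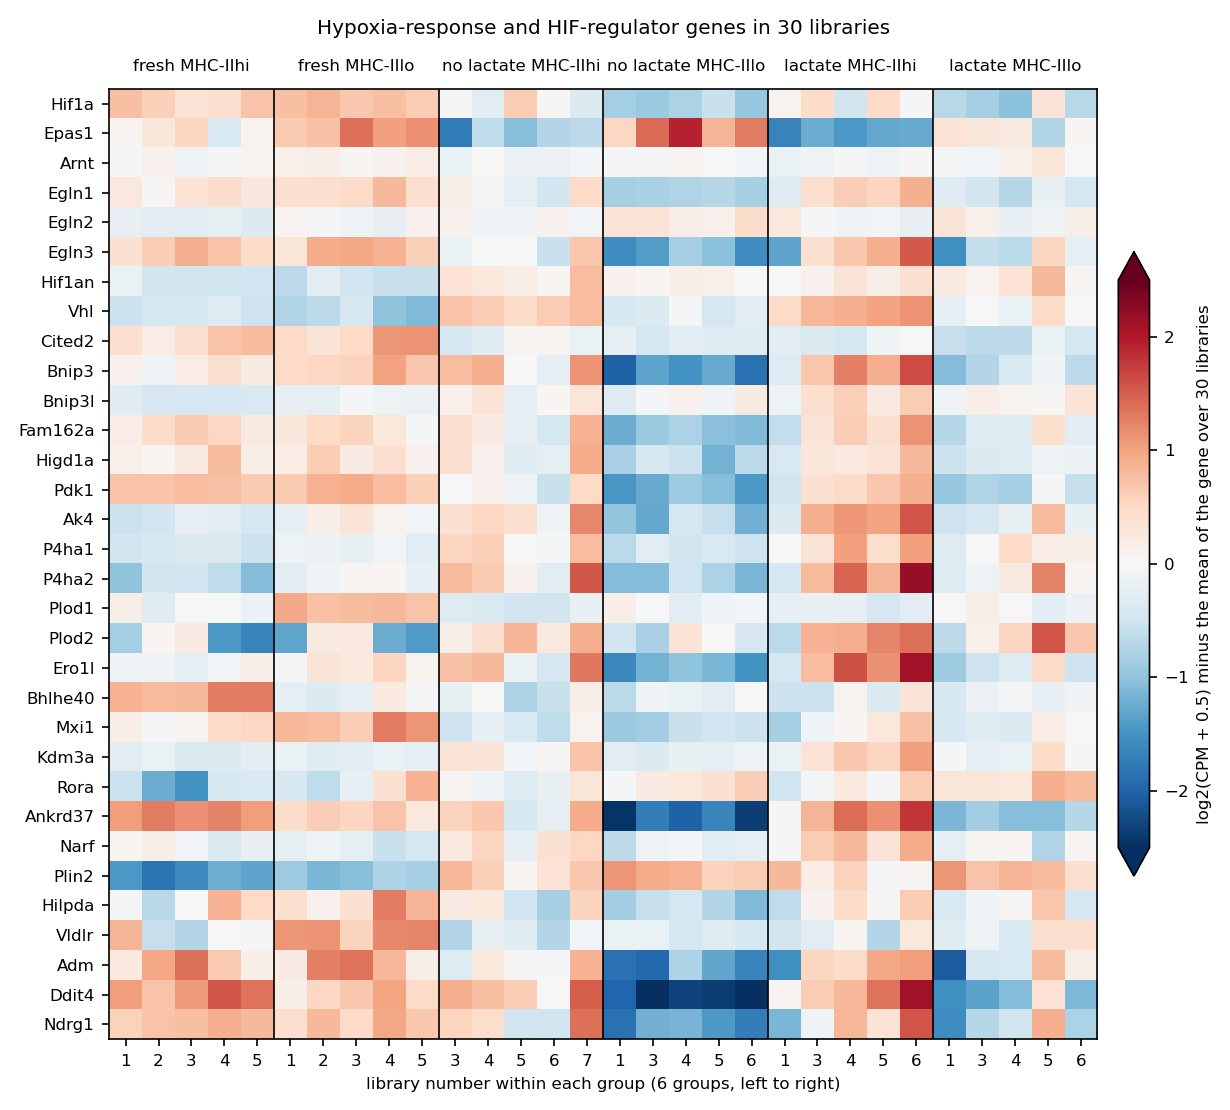
Level of each of the 32 genes (rows, by role) in each of the 30 libraries (columns, by group and header number), as log2(CPM + 0.5) minus the mean of the gene over all libraries. The no-lactate MHC-IIlo libraries are low across most targets, and lactate MHC-IIlo 5 is higher than the other lactate MHC-IIlo libraries in many rows. CPM uses no scaling factor, and the factor computed over all 30 libraries was 1.28 in that library.

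Library totals ran from 16913250 to 31481548 counts. Lactate MHC-IIlo 5 stood apart. Its scaling factor, computed over all 30 libraries, was 1.28 while the other 29 lay between 0.90 and 1.1. It also had the lowest macrophage marker sum of its group (6216 CPM, the others 12220 to 16560). Per library, the median of the 32 genes' deviations from their own means (log2) was 0.34 in lactate MHC-IIlo 5 and -0.39 to -0.07 in the other lactate MHC-IIlo libraries. CPM, these medians and the group overlaps below do not use the scaling factors. Lactate MHC-IIlo 5 therefore reads higher in them than after that scaling. Each test computed its own factors within the libraries of its fit, and those are not given here. The same median ran from -0.34 (number 1) to 0.89 (number 6) in lactate MHC-IIhi cells, and from -0.19 (number 6) to 0.69 (number 7) in no-lactate MHC-IIhi cells, against -0.75 to -0.43 in no-lactate MHC-IIlo cells. The spread among cultured MHC-IIhi libraries was thus wide, and the fresh groups were narrow (0.00 to 0.12 in MHC-IIhi, 0.16 to 0.48 in MHC-IIlo). All 10 macrophage markers were detected in every group, and 7 were higher in fresh MHC-IIlo than in fresh MHC-IIhi cells, with sums of 22910 to 25890 CPM in fresh MHC-IIhi and 27580 to 28920 in fresh MHC-IIlo cells, and of 7512 to 14350 and 12160 to 15050 in the same subsets after no-lactate culture and 8569 to 18230 and 6216 to 16560 after lactate culture. In bulk RNA, fewer cells of a type and less RNA per cell cannot be told apart.

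The first question is how the subsets differ as they come out of the tumour. In fresh MHC-IIlo cells 10 of 31 genes were higher than in MHC-IIhi cells and 5 were lower. Vldlr is set aside here, since it passed the filter on low counts only through the fresh MHC-IIlo group. The largest called difference among the 31 was in Bhlhe40, whose mean CPM in MHC-IIhi cells was 2.20 times that in MHC-IIlo cells. The higher genes moved less, led by Epas1, whose mean CPM was 1.92 times that of MHC-IIhi cells. This ratio was 1.82 for Plod1, a lysyl hydroxylase of collagen, 1.62 for Mxi1 and 1.57 for P4ha2, a prolyl hydroxylase of collagen. All fold changes and tests are from edgeR's quasi-likelihood test with Benjamini-Hochberg adjustment over all genes tested, called at an adjusted p under 0.05, and ± after a log2 fold change is its SE. Of the 12787 genes tested, 14% were called higher and 15.2% lower. The median log2 fold change of the 31 genes was 0.17, and that of all genes 0.00. In 10 of the 31 genes the 2 groups did not overlap, against 22.5% of all genes tested.

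Of the 3 HIF subunit genes, Epas1 was called in fresh cells. Epas1 was at 3.90, 4.61, 5.67, 2.76 and 4.01 CPM in fresh MHC-IIhi libraries 1 to 5 and at 6.17, 6.57, 10.4, 8.08 and 8.88 in fresh MHC-IIlo libraries 1 to 5. The lowest MHC-IIlo library lay above the highest MHC-IIhi library (log2 fold change 0.96 ± 0.20, adjusted p = 0.0032). Hif1a (0.17 ± 0.09, adjusted p = 0.22) and Arnt (0.15 ± 0.08, adjusted p = 0.17) did not pass. Of the 6 sensors and regulators, Egln2 was called higher and Vhl lower, both by small amounts (0.24 ± 0.08 and -0.34 ± 0.11), and their groups overlapped. In a fit with a block for replicate number, an alternative given below, Hif1a, Arnt, Egln1 and Cited2 were called higher as well.

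Among the targets, Bhlhe40 was at 819, 767, 785, 1076 and 1099.8 CPM in fresh MHC-IIhi libraries and at 377, 352, 377, 527 and 435 in fresh MHC-IIlo libraries. Every MHC-IIlo library was below every MHC-IIhi library (log2 fold change -1.12 ± 0.17, adjusted p = 3.22e-04). Ankrd37, an ankyrin-repeat protein induced by HIF, was lower (-0.64 ± 0.10, adjusted p = 4.11e-04), and its groups did not overlap (17.5 to 24.1 against 30.6 to 36.8 CPM). Ddit4, an inhibitor of mTORC1 signalling, was lower with overlapping groups (-0.59 ± 0.19, adjusted p = 0.034). Narf was the fifth lower gene (-0.24 ± 0.08, adjusted p = 0.048).

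The genes that were higher in fresh MHC-IIlo cells came from several roles. The collagen enzymes P4ha1 (0.27 ± 0.07), P4ha2 (0.67 ± 0.15) and Plod1 (0.87 ± 0.10, adjusted p = 3.84e-05) were higher, and Plod1 was at 207 to 243 CPM in MHC-IIlo and 101 to 139 in MHC-IIhi libraries. The mitophagy receptors Bnip3 (0.51 ± 0.14) and Bnip3l (0.25 ± 0.07) and the mitochondrial adenylate kinase Ak4 (0.46 ± 0.11) were higher too, as were the MYC antagonist Mxi1 (0.71 ± 0.17) and Plin2 (0.54 ± 0.15). Vldlr was at 1.00, 0.0591, 0, 0.327 and 0.297 CPM in MHC-IIhi and 1.29, 1.31, 0.714, 1.41 and 1.42 in MHC-IIlo libraries, near its floor. Fibroblast markers moved with the collagen enzymes: 4 of 8 tested were higher in fresh MHC-IIlo cells and none lower, and their sums were 21.9 to 80.9 CPM in MHC-IIhi and 37.1 to 121 in MHC-IIlo libraries, which overlap. Their part in these differences was not tested.

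Leaving out each fresh library in turn, Egln2 was called in 3 of 10 fits, those without fresh MHC-IIhi 4 or fresh MHC-IIlo 2 and 3 (highest adjusted p = 0.12), Vhl was called in 4 of 10 fits, those without fresh MHC-IIhi 1 and 2 or fresh MHC-IIlo 2 and 3 (highest adjusted p = 0.083), and Narf was called in 2 of 10 fits, those without fresh MHC-IIhi 4 or fresh MHC-IIlo 2 (highest adjusted p = 0.12). Ddit4 was called in 4 of 10 fits, those without fresh MHC-IIhi 1, 2 and 3 or fresh MHC-IIlo 4 (highest adjusted p = 0.097). The other 11 calls were kept in all 10 fits. Of the 8 dendritic cell markers tested, 7 were lower in fresh MHC-IIlo cells and 1 was higher. Their sums were 108 to 154 CPM in MHC-IIhi and 166 to 244 in MHC-IIlo cells, where Xcr1 was at 0. Their part in the differences was not tested.

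After 24 h in culture the subsets stood far apart, with MHC-IIlo cells lower. Of the 31 genes tested (Vldlr had too few counts), 18 were lower in MHC-IIlo than in MHC-IIhi cells, and 1, Epas1, was higher. The mean CPM of Ddit4 in MHC-IIhi cells was 10.8 times that in MHC-IIlo cells, that of Ankrd37 5.94 times and that of Bnip3 4.56 times. Over all 13593 genes tested, 9.20% were called higher and 11.6% lower. The median log2 fold change of the 31 genes was -0.78, against -0.01 over all genes. In 19 of the 31 genes the groups did not overlap, against 18.8% of all genes.

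Of the 18 lower genes, 4 had been called higher in fresh MHC-IIlo cells: Bnip3, Ak4, P4ha1 and P4ha2. Another 11 had not been called in fresh cells, and 3 (Vhl, Ankrd37 and Ddit4) had been lower there as well. The shares of all genes with these pairs of calls are not given here. Of the 11, Hif1a, Egln1, Ero1l and Hilpda were called higher in fresh MHC-IIlo cells with the replicate block. Bhlhe40, the gene with the largest fresh deficit in MHC-IIlo cells, did not differ after culture beyond its spread (263 to 492 CPM in MHC-IIhi and 278 to 441 in MHC-IIlo libraries, log2 fold change 0.05 ± 0.19, adjusted p = 0.90).

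**Figure D2:**
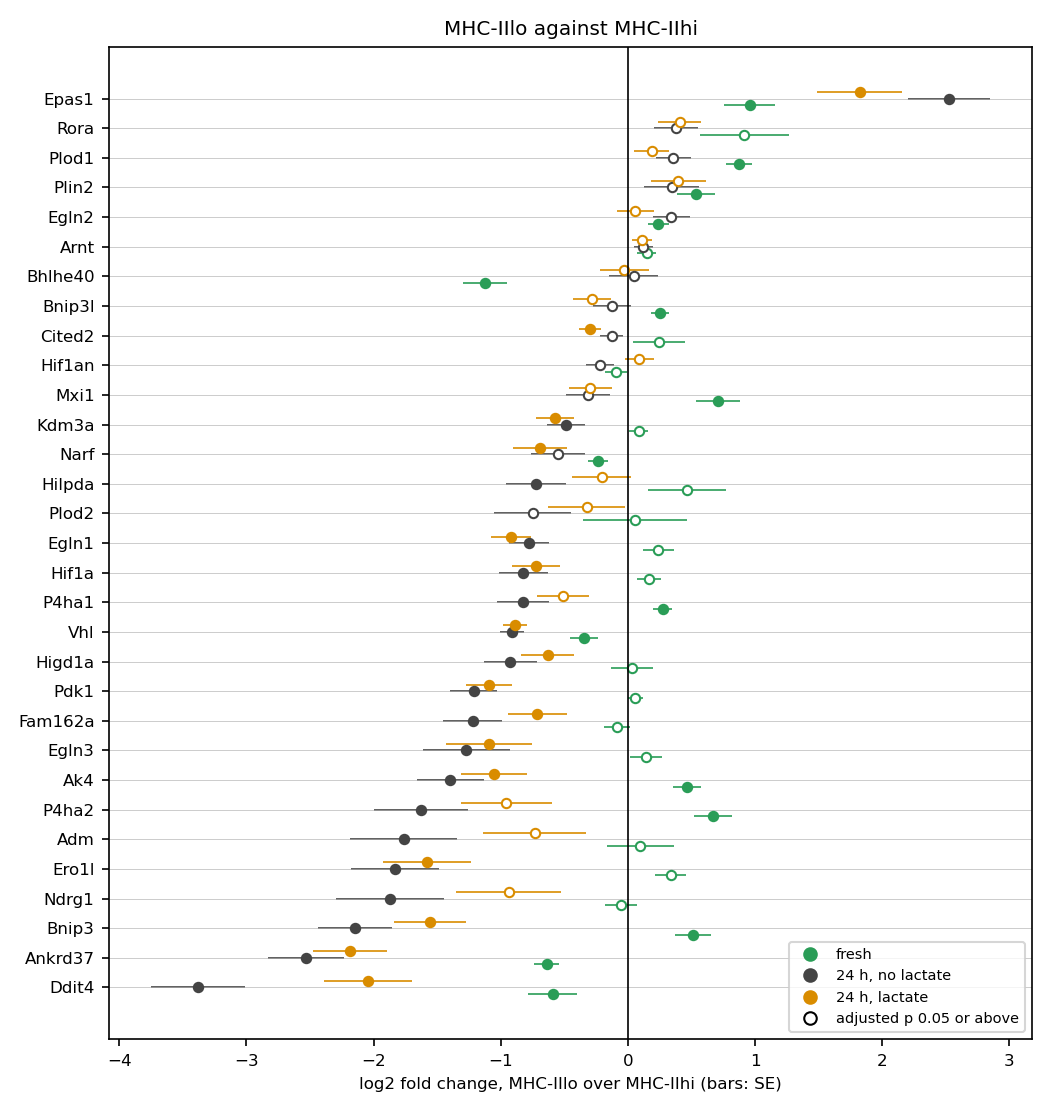
Log2 fold change of MHC-IIlo over MHC-IIhi cells (bars, SE) for the 31 genes tested in all 3 settings, in fresh cells (green), after 24 h without lactate (grey) and after 24 h with lactate (orange). Filled points have an adjusted p under 0.05, and the grey points of Ddit4, Ankrd37 and Bnip3 lie farthest to the left.

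All 3 secreted and stress targets were lower in MHC-IIlo cells. Ddit4 was at 52.7, 47.3, 42.8, 27.5 and 80.3 CPM in no-lactate MHC-IIhi libraries 3 to 7 and at 6.68, 3.91, 5.22, 4.95 and 2.53 in no-lactate MHC-IIlo libraries 1, 3, 4, 5 and 6. The groups were far apart, with the highest MHC-IIlo library well under the lowest MHC-IIhi library (log2 fold change -3.38 ± 0.37, adjusted p = 1.13e-06). Ndrg1, a stress-induced gene, was at 221, 207, 109, 107 and 395 CPM in MHC-IIhi and at 41.2, 65.3, 67.4, 56.0 and 45.2 in MHC-IIlo libraries, in the same order. MHC-IIhi library 7 was the highest and libraries 5 and 6 the lowest, and all were above the MHC-IIlo libraries (-1.87 ± 0.43, adjusted p = 0.0031). Adm, which encodes the vasodilator peptide adrenomedullin, was at 8.61, 13.2, 11.2, 10.6 and 20.5 CPM in MHC-IIhi and at 2.64, 2.49, 6.17, 4.16 and 3.08 in MHC-IIlo libraries. Its groups did not overlap either (-1.76 ± 0.42, adjusted p = 0.0044).

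Of the 6 mitochondrial genes 5 were lower, all but Bnip3l (-0.13 ± 0.15, adjusted p = 0.62). Bnip3 was at 148, 161, 87.1, 74.9 and 188 CPM in MHC-IIhi and at 20.8, 34.4, 30.3, 35.9 and 23.3 in MHC-IIlo libraries (-2.15 ± 0.29, adjusted p = 1.33e-05). Pdk1, the kinase that keeps pyruvate out of the citric acid cycle, was at 83.3, 90.2, 76.5, 56.6 and 118 CPM and at 29.9, 34.3, 44.2, 39.5 and 30.4 (-1.21 ± 0.18, adjusted p = 4.56e-05). In both genes the groups were separate and MHC-IIhi library 7 was the highest. Ak4 was at 34.2, 37.9, 35.4, 24.4 and 61.3 CPM in MHC-IIhi and at 13, 10.5, 19.5, 17.5 and 11.1 in MHC-IIlo libraries (-1.40 ± 0.26, adjusted p = 5.47e-04). Fam162a, a HIF target of the mitochondrial membrane, was at 65.3, 57.5, 42.8, 36.4 and 90.7 CPM and at 20.8, 25.9, 28.4, 23.9 and 22.8 (-1.22 ± 0.23, adjusted p = 6.73e-04). The groups were again separate in both genes, and in Higd1a, a regulator of respiratory complexes (-0.93 ± 0.21, adjusted p = 0.0029).

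Of the 5 collagen and disulphide enzymes, P4ha1 (-0.83 ± 0.20), P4ha2 and Ero1l were lower, and Plod1 (0.36 ± 0.14, adjusted p = 0.075) and Plod2 (-0.75 ± 0.30, adjusted p = 0.085) did not pass. Ero1l, the oxidase that drives disulphide bonding in the endoplasmic reticulum, was at 315, 333, 169, 141 and 472 CPM in MHC-IIhi and at 61.6, 83.2, 93.7, 85.6 and 67.1 in MHC-IIlo libraries (-1.83 ± 0.35, adjusted p = 5.91e-04). P4ha2 was at 24.7, 22.2, 15.1, 11.5 and 42.3 CPM and at 6.35, 6.37, 9.77, 7.94 and 6.09 (-1.63 ± 0.37, adjusted p = 0.0028). Both genes varied several-fold among the MHC-IIhi libraries, and their lowest MHC-IIhi value still lay above the highest MHC-IIlo value.

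Of the 6 transcription and chromatin targets 2 were lower, Ankrd37 and the histone demethylase Kdm3a (-0.49 ± 0.15, adjusted p = 0.026). Ankrd37 was at 21.6, 23.6, 10.9, 12.3 and 28 CPM in MHC-IIhi and at 2.24, 4.05, 3.21, 4.28 and 2.46 in MHC-IIlo libraries (-2.53 ± 0.30, adjusted p = 3.23e-06), with no overlap. Ankrd37 overlaps Ufsp2 on the other strand, a gene with more counts than Ankrd37 (12298 in all libraries), and whether the counting used strand is not given in the sources used here. Of the lipid genes tested, Hilpda was lower with overlapping groups (-0.72 ± 0.24, adjusted p = 0.033), and Plin2 was not called (0.34 ± 0.22, adjusted p = 0.29).

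Hif1a and Epas1, which encode the alternative alpha subunits, differed in opposite directions. Hif1a was at 334, 282, 533, 348 and 271 CPM in no-lactate MHC-IIhi and at 188, 179, 198, 232 and 176 in MHC-IIlo libraries (-0.82 ± 0.19, adjusted p = 0.0034). Epas1 was at 0.755, 2.22, 1.51, 2.05 and 2.17 CPM and at 5.58, 10.8, 15.6, 7.15 and 9.86 (2.53 ± 0.32, adjusted p = 7.21e-06), so that MHC-IIlo cells were lower in Hif1a and higher in Epas1, both with no overlap. Arnt was 0.12 ± 0.08 (adjusted p = 0.30). Among the sensors, Egln3 was at 57.6, 65.1, 64.8, 43.9 and 106 CPM in MHC-IIhi and at 21.8, 24.2, 36.4, 31.6 and 21.8 in MHC-IIlo libraries (-1.27 ± 0.34, adjusted p = 0.010). Egln1 (-0.78 ± 0.16) and Vhl (-0.91 ± 0.09, adjusted p = 5.18e-07) were lower as well, while Egln2, Hif1an and Cited2, which competes with HIF for a coactivator, did not pass.

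Leaving out each of the 10 libraries in turn, Kdm3a was called in 6 of 10 fits and lost without no-lactate MHC-IIhi 3, 4 and 7 or no-lactate MHC-IIlo 4 (highest adjusted p = 0.079), and Hilpda was called in 4 of 10 fits, those without no-lactate MHC-IIhi 5 and 6 or no-lactate MHC-IIlo 3 and 4 (highest adjusted p = 0.093). The other 17 calls were kept in all 10 fits. Dendritic cell markers were far higher in cultured MHC-IIhi cells: their sum was 100 to 318 CPM in no-lactate MHC-IIhi and 9.86 to 20.9 in no-lactate MHC-IIlo libraries, with 6 of 7 tested markers lower in MHC-IIlo cells. None of the 10 markers was at 0 in either group. Their part in the differences was not tested.

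**Figure D3:**
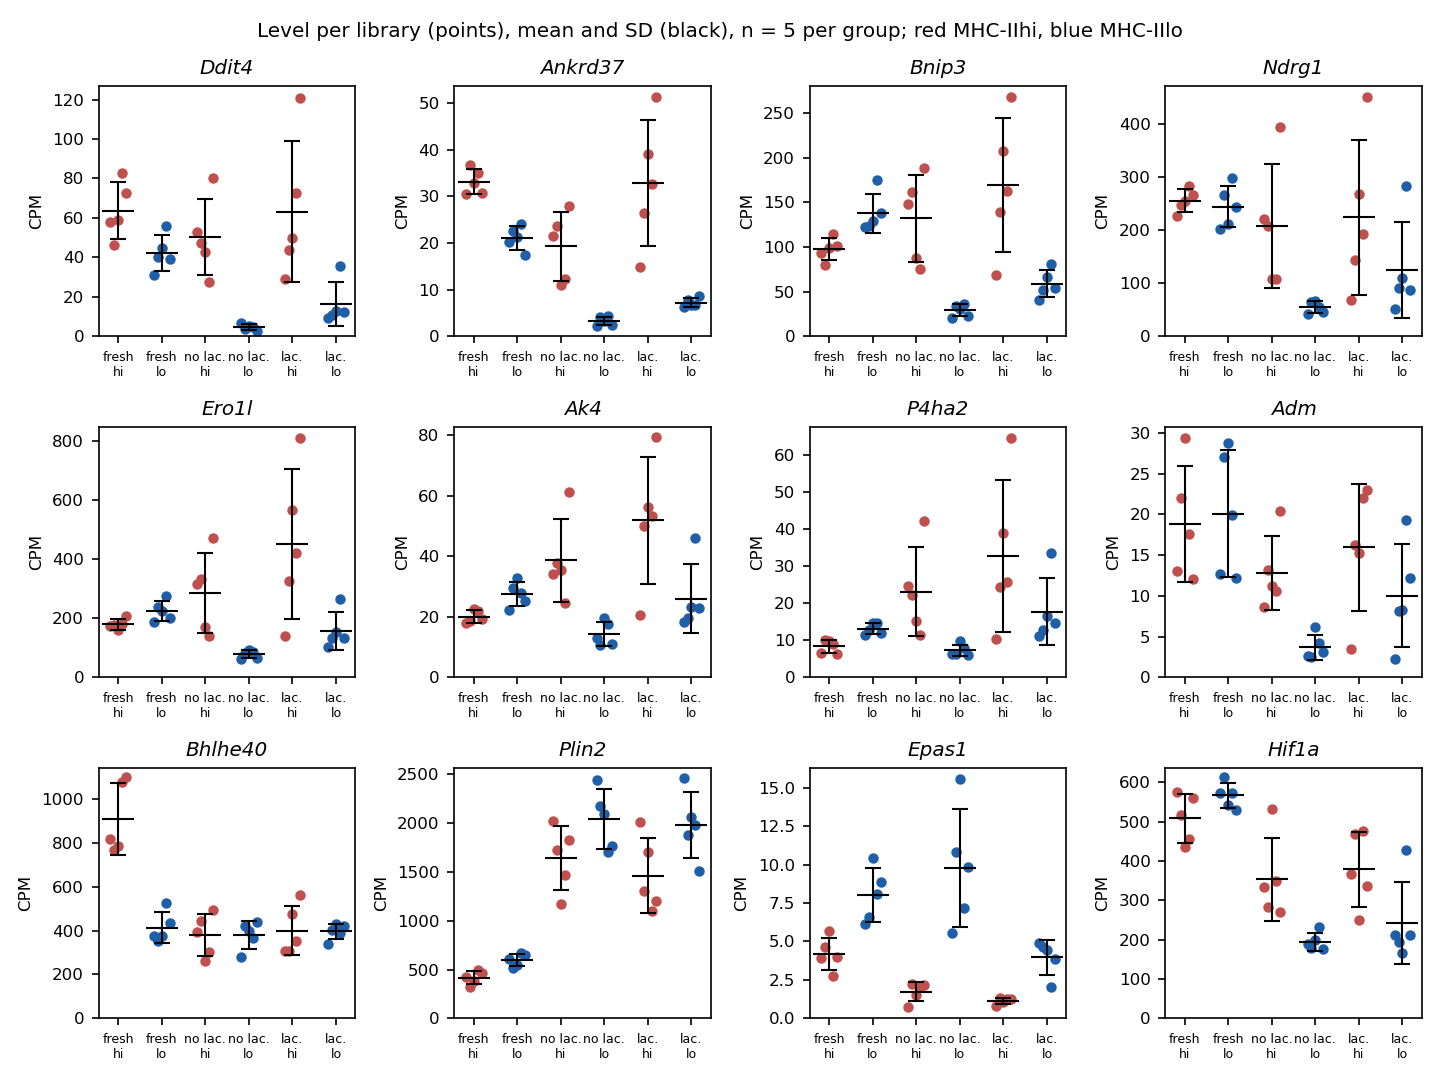
CPM in each library (points, in header order) of 12 genes in the 6 groups, with mean and SD (black), n = 5, MHC-IIhi red and MHC-IIlo blue, and axes from 0. Ddit4, Ankrd37 and Bnip3 are lowest in no-lactate MHC-IIlo cells, Bhlhe40 is highest in fresh MHC-IIhi cells and Plin2 is higher in all cultured groups.

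The next question is which subset moved between the sort and the end of culture. In MHC-IIlo cells 18 of 31 genes were lower after no-lactate culture and 4 were higher, while in MHC-IIhi cells 9 were lower and 13 higher. Vldlr is again set aside, as it passed the filter only through fresh MHC-IIlo cells. Over all 13682 genes tested, 27.6% were called higher and 29.9% lower in MHC-IIlo cells, and 31.6% and 30.4% in MHC-IIhi cells. The median log2 fold change of the 31 genes was -0.90 in MHC-IIlo and -0.06 in MHC-IIhi cells, against -0.01 and 0.01 over all genes. The fresh and cultured groups did not overlap in 22 of the 31 genes in MHC-IIlo and in 15 in MHC-IIhi cells, against 44.5% and 43.4% of all genes.

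The genes are next sorted by their calls in the 2 subsets. The share of all genes in each combination is not given here, so these counts only describe the genes named. Among the 32 genes, 3 went in opposite directions with a call in each subset: Ak4, P4ha2 and Ero1l were higher after culture in MHC-IIhi and lower in MHC-IIlo cells. P4ha2 was at 6.68, 10.1, 9.86, 8.88 and 6.34 CPM in fresh MHC-IIhi libraries, all below the no-lactate MHC-IIhi libraries given above (1.5 ± 0.24, adjusted p = 1.21e-05). In MHC-IIlo cells it fell from 13.1 ± 1.48 to 7.30 ± 1.56 CPM (SD, n = 5; -0.80 ± 0.24, adjusted p = 0.0064). Ak4 rose by 0.97 ± 0.18 (log2) in MHC-IIhi cells and its log2 fold change was -0.90 ± 0.18 in MHC-IIlo cells. Ero1l was at 187, 237, 224, 276 and 201 CPM in fresh MHC-IIlo libraries, all above the no-lactate MHC-IIlo ones (-1.47 ± 0.23, adjusted p = 1.39e-05). In MHC-IIhi cells its change was 0.69 ± 0.23 (adjusted p = 0.012). Without no-lactate MHC-IIhi 7 that change was 0.48 and no longer called (adjusted p = 0.059).

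Another 8 genes were lower after culture in MHC-IIlo cells and not called in MHC-IIhi cells: Egln1, Bnip3, Fam162a, Higd1a, Hilpda, Adm, Ddit4 and Ndrg1. Ddit4 was at 30.9, 40.1, 44.8, 55.8 and 39.2 CPM in fresh MHC-IIlo libraries (-3.13 ± 0.27, adjusted p = 2.91e-09), and its change in MHC-IIhi cells was -0.34 ± 0.24 (adjusted p = 0.23). Ndrg1 was at 203, 266, 212, 298 and 244 CPM in fresh MHC-IIlo libraries (-2.10 ± 0.26, adjusted p = 6.51e-07) and Adm at 12.7, 27, 28.8, 19.9 and 12.1 (-2.38 ± 0.29, adjusted p = 3.37e-07). In all 3 genes every fresh MHC-IIlo library was above every no-lactate MHC-IIlo one, and Adm was spread widely among the fresh libraries, with numbers 2 and 3 high.

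Bnip3 was at 122, 124, 129, 175 and 138 CPM in fresh MHC-IIlo libraries (-2.20 ± 0.23, adjusted p = 4.55e-08), and Fam162a was at 60.8, 70.3, 73.6, 59.3 and 48.1 (-1.29 ± 0.17, adjusted p = 1.22e-06). Hilpda went from 207, 166, 201, 377 and 278 CPM to 84.5, 103, 114, 93.4 and 71.6 in MHC-IIlo cells (-1.37 ± 0.31, adjusted p = 6.12e-04), and Egln1 from 139.8, 139.9, 148, 185 and 142 to 59.0, 59.9, 62.8, 64.5 and 58.8 (-1.26 ± 0.15, adjusted p = 2.20e-07). In these 4 genes too the fresh and no-lactate MHC-IIlo libraries were separate, while in MHC-IIhi cells the log2 fold changes were 0.46, -0.15, -0.18 and -0.24. Higd1a fell by less (-0.99 ± 0.22). Vldlr was at 0.234, 0.242, 0.119, 0.166 and 0.110 CPM in no-lactate MHC-IIlo libraries.

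Lower after culture in both subsets were 7 genes: Hif1a, Egln3, Cited2, Pdk1, Plod1, Mxi1 and Ankrd37. Hif1a was at 573, 612, 543, 574 and 529 CPM in fresh MHC-IIlo libraries, against 176 to 232 after culture (-1.49 ± 0.14, adjusted p = 1.07e-08), and its change in MHC-IIhi cells was -0.50 ± 0.14 (adjusted p = 0.0037). Egln3 was at 79.9, 125, 128, 119.6 and 98.5 CPM in fresh MHC-IIlo libraries (-1.97 ± 0.18, adjusted p = 4.12e-09). Pdk1 was at 131, 153, 158, 143 and 126 CPM there (-1.94 ± 0.13, adjusted p = 4.10e-11). Each of these genes was higher in every fresh MHC-IIlo library than in any no-lactate MHC-IIlo one.

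Ankrd37 was at 20.2, 22.5, 21.2, 24.1 and 17.5 CPM in fresh MHC-IIlo libraries (-2.65 ± 0.24, adjusted p = 3.88e-09), and its change in MHC-IIhi cells was -0.75 ± 0.21. Mxi1 was at 248, 241, 215, 344 and 300.0 CPM in fresh and 73.0, 76.7, 94.6, 101 and 96.9 in no-lactate MHC-IIlo libraries (-1.57 ± 0.17, adjusted p = 8.86e-08), and -0.55 ± 0.17 in MHC-IIhi cells. Cited2 was at 92.0, 81.0, 92.4, 139.9 and 141 CPM in fresh and 55.3, 48.0, 54.4, 51.8 and 52.1 in no-lactate MHC-IIlo libraries (-1.03 ± 0.18, adjusted p = 4.10e-05). The fresh MHC-IIlo libraries were again all above the no-lactate MHC-IIlo ones. The change of Plod1 was -0.80 ± 0.11 in MHC-IIlo and -0.28 ± 0.11 in MHC-IIhi cells, where it was called in 3 of 10 fits, those without fresh MHC-IIhi 2 or no-lactate MHC-IIhi 3 and 7 (highest adjusted p = 0.11).

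Higher after culture in both subsets were 4 genes: Plin2, Vhl, Hif1an and Egln2. Plin2 was at 422, 322, 381, 491 and 459.8 CPM in fresh MHC-IIhi and 2022, 1729, 1175, 1469 and 1829 in no-lactate MHC-IIhi libraries (2.01 ± 0.18, adjusted p = 3.89e-09). It was at 607, 516, 548, 672 and 644 CPM in fresh MHC-IIlo and 2447, 2178, 2098, 1702 and 1771 in no-lactate MHC-IIlo libraries (1.82 ± 0.18, adjusted p = 2.08e-08). All 10 cultured libraries were above all 10 fresh ones. Vhl was at 23.3, 25.4, 25.8, 27.3 and 23.7 CPM in fresh and 55.8, 52.6, 47.0, 53.1 and 58.6 in no-lactate MHC-IIhi libraries, with no overlap (1.12 ± 0.10, adjusted p = 3.53e-09), and rose less in MHC-IIlo cells (0.55 ± 0.10). Hif1an rose by 0.79 ± 0.10 and 0.66 ± 0.10 (log2) in MHC-IIhi and MHC-IIlo cells, and Egln2 by 0.29 ± 0.10 and 0.39 ± 0.10. The Egln2 call in MHC-IIhi cells was lost without no-lactate MHC-IIhi 3 (adjusted p = 0.053).

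In MHC-IIhi cells 6 genes rose that were not called in MHC-IIlo cells (Bnip3l, P4ha1, Plod2, Kdm3a, Rora and Narf), and 2 fell that were not called there (Bhlhe40 and Epas1). Bhlhe40 was at 392, 444, 263, 304 and 492 CPM in no-lactate MHC-IIhi libraries (-1.24 ± 0.20, adjusted p = 1.22e-05), all below the fresh ones, and its change in MHC-IIlo cells was -0.07 ± 0.19 (adjusted p = 0.76). Epas1 fell in MHC-IIhi cells (-1.23 ± 0.28, adjusted p = 7.24e-04) with no overlap and was 0.33 ± 0.26 in MHC-IIlo cells (adjusted p = 0.27). Plod2, a lysyl hydroxylase, was at 14.1, 26.5, 29.8, 9.25 and 7.88 CPM in fresh and 28.4, 34.5, 47.1, 30.5 and 48.8 in no-lactate MHC-IIhi libraries (1.17 ± 0.33, adjusted p = 0.0044). Its groups overlapped through fresh library 3. Rora, a nuclear receptor, was called in 6 of 10 fits and lost without fresh MHC-IIhi 2 and 3 or no-lactate MHC-IIhi 3 and 7 (highest adjusted p = 0.077). Arnt was the 1 gene called in neither subset (-0.06 ± 0.08 and -0.09 ± 0.08).

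**Figure D4:**
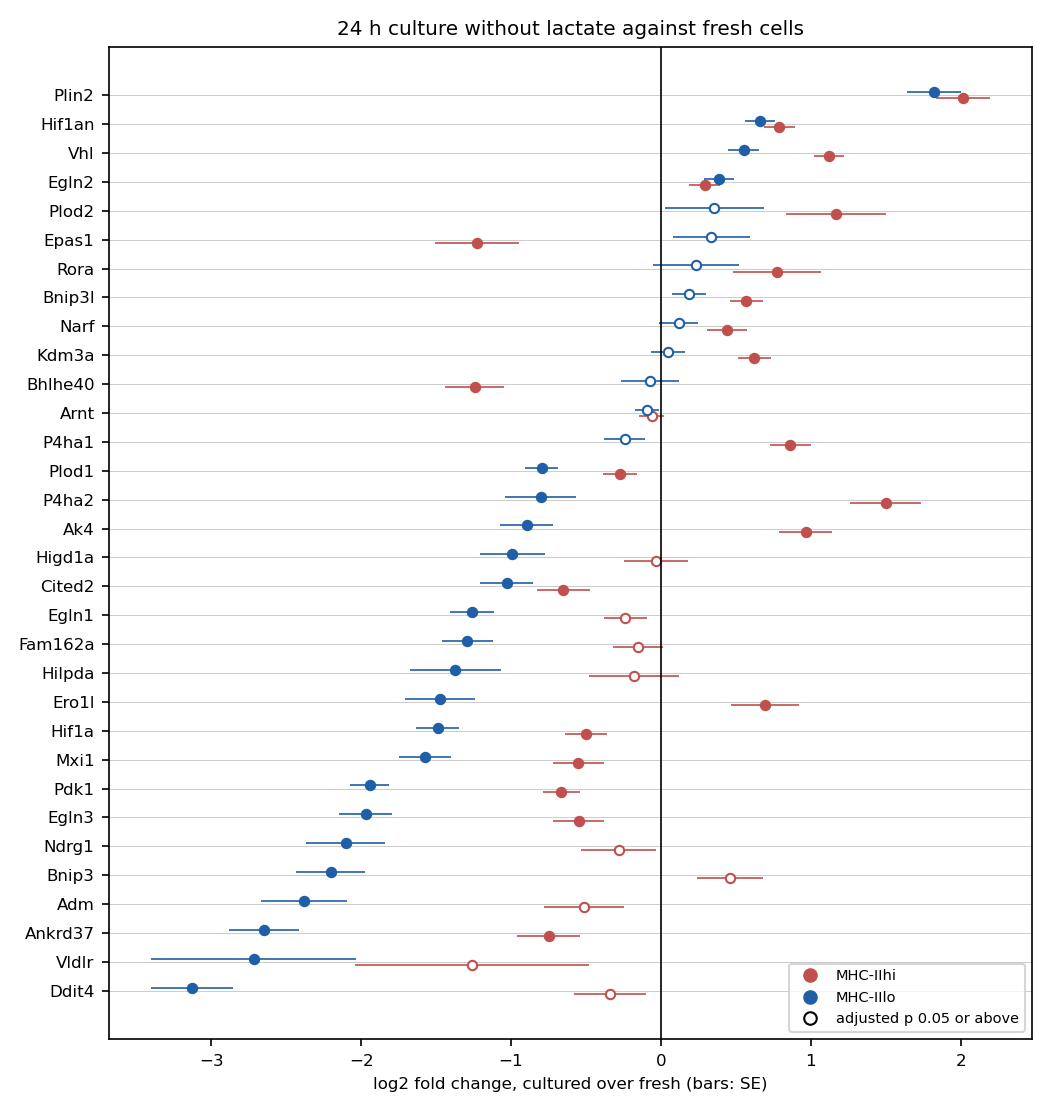
Log2 fold change of 24 h culture without lactate over fresh cells (bars, SE) for the 32 genes, MHC-IIhi red and MHC-IIlo blue (Vldlr is plotted but set aside in the counts). Filled points have an adjusted p under 0.05, and for most genes the blue point lies to the left of the red one, with Epas1, Bhlhe40 and Egln2 the other way round.

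Whether the change with culture differed between the subsets was tested directly, as the change in MHC-IIlo minus the change in MHC-IIhi cells. It was called in 21 of the 31 genes: lower in MHC-IIlo cells for 19 and higher for 2 (Epas1 and Bhlhe40), against 8.27% and 6.03% of all 13682 genes. The median difference was -0.99 (log2) over the 31 genes and -0.02 over all genes. The largest were in Ddit4 (-2.79 ± 0.36, adjusted p = 1.99e-05), Bnip3 (-2.66 ± 0.32, adjusted p = 7.46e-06) and P4ha2 (-2.30 ± 0.33, adjusted p = 8.30e-05). By role, the difference was called lower for all 3 secreted and stress targets, 5 of 6 mitochondrial genes, 4 of 5 collagen and disulphide enzymes, 3 of 6 transcription and chromatin targets, 3 of 6 sensors and regulators, and for neither Hilpda (adjusted p = 0.067) nor Plin2 (adjusted p = 0.67). Hif1a had a difference of -0.99 ± 0.20 (adjusted p = 0.0016), and Epas1 of 1.56 ± 0.38 (adjusted p = 0.0078).

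This comparison uses the same fresh and cultured libraries as the comparisons above and is not separate evidence for them. Leaving out each of the 20 libraries in turn, Higd1a was called in 8 of 20 fits, those without fresh MHC-IIhi 4, fresh MHC-IIlo 1, 3 and 5, no-lactate MHC-IIhi 5 and 6 or no-lactate MHC-IIlo 3 and 4 (highest adjusted p = 0.074). Plod1 was called in 12 of 20 fits and lost without fresh MHC-IIhi 2, fresh MHC-IIlo 1 and 4, no-lactate MHC-IIhi 3 and 4 or no-lactate MHC-IIlo 4, 5 and 6 (highest adjusted p = 0.062). The other 19 calls were kept in all 20 fits. Macrophage marker sums were lower in cultured than in fresh cells in both subsets, with no overlap. Dendritic cell marker sums in MHC-IIlo cells were lower after culture than before, also with no overlap, while those in MHC-IIhi cells overlapped. In fresh MHC-IIlo cells 7 of the 8 dendritic cell markers tested were lower than in MHC-IIhi cells, although the sum was higher. The sum thus need not follow most of its markers. The part of the macrophage and dendritic cell markers in the result was not tested.

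The last question is whether lactate in the culture changed these genes. In MHC-IIhi cells none of the 31 genes tested was called (edgeR's quasi-likelihood test), 5 had an unadjusted p under 0.05 (Egln1, Vhl, Pdk1, Mxi1 and Ankrd37), against 9.87% of all genes, and DESeq2 and limma voom also called none. Over all 13593 genes, 0.206% were called higher and 0.0441% lower. The groups overlapped in all 31 genes, while 1.93% of all genes had no overlap. The log2 fold change was above 0 in 27 of the 31 genes, with a median of 0.24, against 48.9% of all genes and a median of -0.01. Ankrd37 was at 14.9, 26.5, 39.1, 32.8 and 51.2 CPM in lactate MHC-IIhi libraries 1, 3, 4, 5 and 6, across a wide range from low in number 1 to high in number 6. Its log2 fold change was 0.76 ± 0.28 (adjusted p = 0.35). Ero1l ran from 139 to 811 CPM across the same libraries (0.66 ± 0.34, adjusted p = 0.54). The SEs of the log2 fold changes reached 0.41 (Ndrg1), so small changes in the genes of wide spread were not detectable.

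In MHC-IIlo cells 1 of the 31 genes was called higher with lactate, Ddit4, and 1 lower, Epas1, against 0.905% and 0.581% of all genes. In 18 of the 31 genes the unadjusted p was under 0.05, against 17.5% of all genes tested, and the log2 fold change was above 0 in 26, against 51.9% of all genes. The median was 0.36 over the 31 genes and 0.01 over all genes. Ddit4 was at 9.31, 10.8, 12.9, 35.9 and 12.5 CPM in lactate MHC-IIlo libraries 1, 3, 4, 5 and 6, against 2.53 to 6.68 without lactate (1.66 ± 0.36, adjusted p = 0.024). The lactate and no-lactate libraries did not overlap, and number 5 was far above the rest. Without it the change was 1.32 (adjusted p = 0.056). Over the 10 fits that each left out 1 library, Ddit4 was called in 5 of 10 fits and lost without no-lactate MHC-IIlo 3, 5 and 6 or lactate MHC-IIlo 4 and 5 (highest adjusted p = 0.069). In lactate MHC-IIhi libraries Ddit4 was at 29.2, 43.7, 49.9, 72.6 and 121 CPM.

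Epas1 was at 4.87, 4.64, 4.42, 2.03 and 3.88 CPM in lactate MHC-IIlo libraries, all below the no-lactate MHC-IIlo libraries (5.58 to 15.6 CPM, -1.30 ± 0.30, adjusted p = 0.037). Over the same fits Epas1 was called in 2 of 10 fits, those without no-lactate MHC-IIlo 1 or lactate MHC-IIlo 1 (highest adjusted p = 0.087). Without lactate MHC-IIlo 5 its change was -1.09 (adjusted p = 0.057). No overlap between lactate and no-lactate MHC-IIlo libraries was seen in 10 of the 31 genes, against 6.17% of all genes. It was seen in 8 of the 29 that were not called, against 5.13% of all genes not called: Egln1, Bnip3, Fam162a, P4ha2, Ero1l, Mxi1, Ankrd37 and Hilpda. Bnip3 was at 40.3, 52.0, 65.9, 80.4 and 54.5 CPM with lactate and 20.8 to 35.9 without (0.94 ± 0.28, adjusted p = 0.087). Ankrd37 was at 6.28, 7.78, 6.67, 6.67 and 8.69 CPM with lactate and 2.24 to 4.28 without (1.11 ± 0.30, adjusted p = 0.063). P4ha2 (1.17 ± 0.36, adjusted p = 0.097) and Adm (1.33 ± 0.42, adjusted p = 0.10) were highest in number 5.

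Without lactate MHC-IIlo 1, 5 genes were called higher: Ddit4, Bnip3, Fam162a, Ankrd37 and Adm. Without lactate MHC-IIlo 5, none was. DESeq2 called 6 higher and limma voom with quality weights 12. The number of genes called in MHC-IIlo cells thus rested on single libraries and on the tool. The shares of all genes called in these fits are not given here, so the counts show only how the calls shift.

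**Figure D5:**
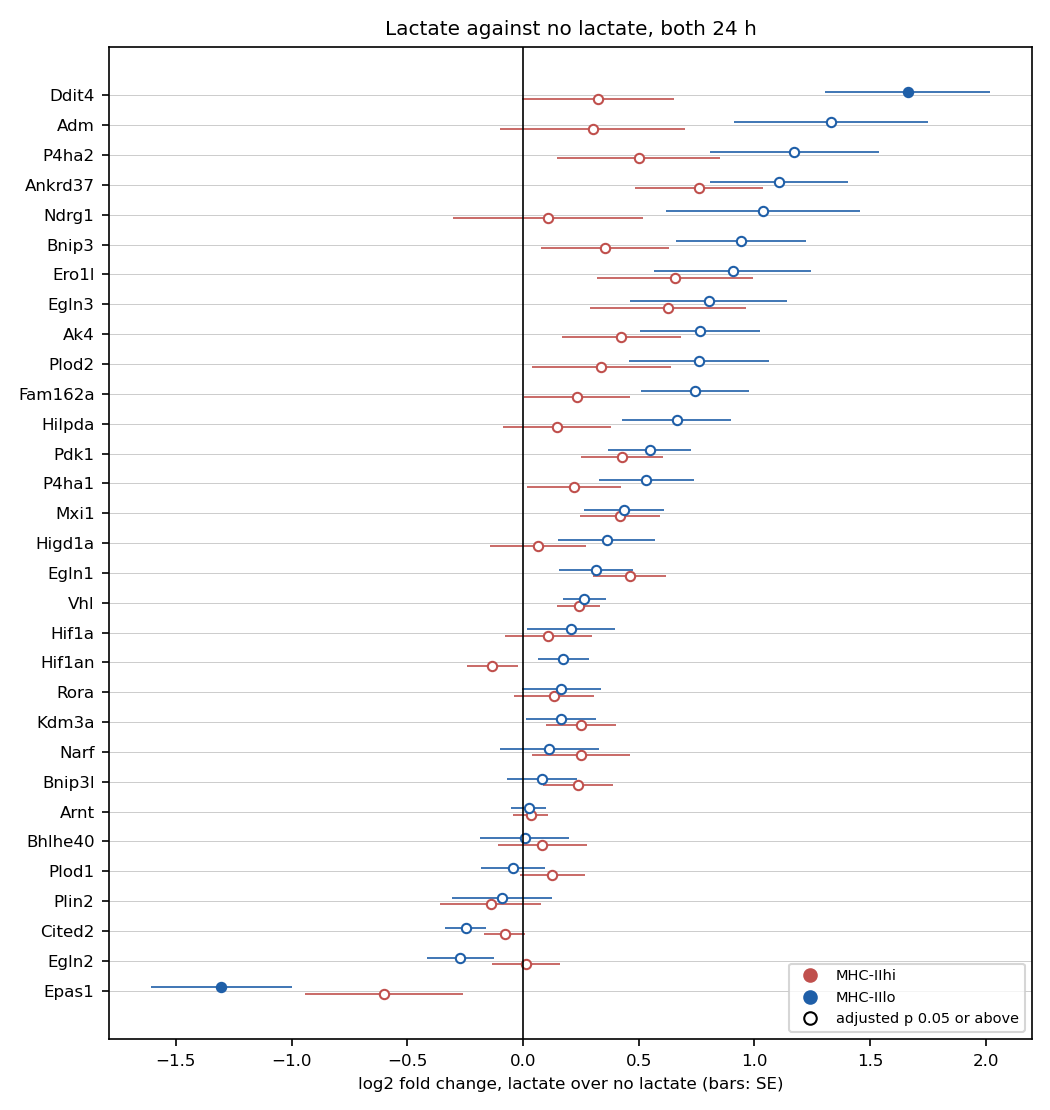
Log2 fold change of 24 h culture with lactate over culture without (bars, SE) for 31 genes, MHC-IIhi red and MHC-IIlo blue. Most points lie to the right of 0 in both subsets, and 2 are filled (adjusted p under 0.05), Ddit4 and Epas1 in MHC-IIlo cells.

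The difference of the lactate change between the subsets was called for none of the 31 genes, as for none of all genes (0% higher and 0% lower), with 1 of the 31 (Ddit4, 1.34 ± 0.48, adjusted p = 0.63) at an unadjusted p under 0.05, against 7.49% of all genes. DESeq2 and limma voom also called none of the 31. A difference between the subsets in their response to lactate was thus not shown, with an SE of 0.48 for Ddit4.

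With lactate in both subsets, MHC-IIlo cells were lower than MHC-IIhi cells in 15 of the 31 genes and higher in 1, Epas1, against 13.3% and 9.13% of all genes. The median log2 fold change was -0.63, against 0.02 over all genes. These libraries are other than those without lactate, but both comparisons come from 1 fit. The replicate numbers do not settle whether libraries with and without lactate share source samples. Genes lower in both settings are thus not separate evidence, and the share of all genes lower in both is not given here. Of the 18 genes lower in MHC-IIlo cells without lactate, 13 were lower here too. The exceptions were P4ha1, P4ha2, Hilpda, Adm and Ndrg1, and Cited2 and Narf were called here only. That these calls differ between the settings was not shown by the direct test of the difference. Only Epas1, Vhl and Ankrd37 of the 31 had no overlap between the groups in CPM, which 12.4% of all genes had. In many other genes MHC-IIhi library 1 was low or MHC-IIlo library 5 high. CPM does not use the scaling factors, which over all 30 libraries were 0.90 and 1.28 in these libraries, the lowest and highest of all. In CPM, MHC-IIhi library 1 thus reads lower and MHC-IIlo library 5 higher than after that scaling. The tests used factors of their own fit.

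Ankrd37 (-2.19 ± 0.29, adjusted p = 1.39e-05), Ddit4 (-2.04 ± 0.34, adjusted p = 1.93e-04) and Ero1l (-1.58 ± 0.34, adjusted p = 0.0022) had the largest deficits. Bnip3 was at 68.4, 139.5, 207, 163 and 268 CPM in MHC-IIhi libraries with lactate, against 40.3 to 80.4 in the MHC-IIlo ones (-1.56 ± 0.28, adjusted p = 4.11e-04). Ero1l was at 139, 325, 569, 420.1 and 811 CPM in MHC-IIhi and 102, 132, 152, 266 and 132 in MHC-IIlo libraries, with the same library low. In all 3 genes that follow, MHC-IIhi 1 was the lowest and MHC-IIlo 5 the highest library of its group. Pdk1 was at 60.2, 109, 115, 132 and 156 CPM in MHC-IIhi and 43.0, 49.1, 46.4, 81.8 and 55.5 in MHC-IIlo libraries (-1.1 ± 0.18). Ak4 was at 20.6, 50, 56.2, 53.2 and 79.2 CPM in MHC-IIhi and 18.3, 19.4, 23.1, 46.1 and 23 in MHC-IIlo libraries (-1.06 ± 0.26). Egln3 was at 25.8, 85.5, 103, 120.1 and 189 CPM in MHC-IIhi and 22.1, 42.9, 40.6, 94.0 and 55.7 in MHC-IIlo libraries (-1.09 ± 0.34). Epas1 was at 0.830, 1.30, 1.07, 1.24 and 1.28 CPM in lactate MHC-IIhi libraries, the lowest of the 6 groups, and higher in MHC-IIlo cells (1.82 ± 0.33, adjusted p = 4.34e-04). Vhl was 48.0 to 75.0 CPM in MHC-IIhi and 29.4 to 46.7 in MHC-IIlo libraries (-0.89 ± 0.09, adjusted p = 8.07e-07). Without lactate MHC-IIhi 6, 10 genes were called lower, and without lactate MHC-IIhi 1 there were 19.

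Leaving out each of these 10 libraries in turn, Egln3 was called in 6 of 10 fits and lost without lactate MHC-IIhi 6 or lactate MHC-IIlo 1, 3 and 4 (highest adjusted p = 0.099), and Fam162a was called in 4 of 10 fits, those without lactate MHC-IIhi 1, 3 and 5 or lactate MHC-IIlo 5 (highest adjusted p = 0.12). Higd1a was called in 4 of 10 fits, those without lactate MHC-IIhi 1 and 5 or lactate MHC-IIlo 4 and 6 (highest adjusted p = 0.11), Cited2 was called in 7 of 10 fits and lost without lactate MHC-IIhi 1 and 6 or lactate MHC-IIlo 3 (highest adjusted p = 0.070), and Narf was called in 8 of 10 fits and lost without lactate MHC-IIhi 4 and 6 (highest adjusted p = 0.069). The other 11 calls were kept in all 10 fits. Without lactate MHC-IIlo 5, 16 genes were called lower and 1 higher.

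The other lists of the pathway are read against the shares of all genes called: in fresh MHC-IIlo cells 14% higher and 15.2% lower, without lactate 9.20% and 11.6%, with lactate 9.13% and 13.3%, and with lactate against none in MHC-IIlo cells 0.905% and 0.581%. The glycolytic HIF targets, 18 enzymes and transporters, were mostly lower in cultured MHC-IIlo cells as well. Without lactate 16 of the 18 were lower in MHC-IIlo than in MHC-IIhi cells and none higher, among them Aldoc (-3.60 ± 0.32, adjusted p = 1.05e-07), Pfkfb3 (-1.5 ± 0.14) and Pfkl (-1.31 ± 0.12). With lactate 12 were lower and none higher. In fresh cells 5 were lower and 1 higher, led by Pfkp (-1.20 ± 0.08) and Aldoc (-2.04 ± 0.14). The change with culture was lower in MHC-IIlo cells for 13 of 18, against 8.27% of all genes. Lactate raised 2 in MHC-IIlo cells, Pfkl (0.57 ± 0.12, adjusted p = 0.024) and the lactate transporter gene Slc16a3 (0.77 ± 0.18, adjusted p = 0.040). Whether these calls hold with any library left out was not tested. The Ddit4 and Epas1 calls of the same comparison were lost without lactate MHC-IIlo 5. In MHC-IIhi cells none was called with lactate, and 2 of 18 had an unadjusted p under 0.05 in edgeR's quasi-likelihood test, close to the 9.87% of all genes. The log2 fold change was above 0 in all 18 there, with a median of 0.25, against 48.9% of all genes and a median of -0.01. In MHC-IIlo cells it was above 0 in 17 of 18, against 51.9% of all genes. There 14 had an unadjusted p under 0.05 in the same test, against 17.5% of all genes, and 13 had no overlap, against 6.17%.

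Of 29 further HIF targets tested, 13 were lower and 3 higher in MHC-IIlo cells after culture without lactate, led by Nfil3 (-1.51 ± 0.12) and Gys1 (-1.91 ± 0.25), and 7 were higher and 1 lower in fresh cells. With lactate 13 were lower and 3 higher. The higher counts after culture are near the shares of all genes (9.20% and 9.13%), while 13 of 29 is above those called lower (11.6% and 13.3%). In MHC-IIlo cells lactate raised 3 of the 29, among them Ier3 (1.42 ± 0.23, adjusted p = 0.0071), and lowered 1, Lox (-1.76 ± 0.40, adjusted p = 0.031). Whether these calls with lactate hold with any library left out was not tested either. Of 19 genes of HIF turnover and coactivation tested, 2 were lower and 1 higher in MHC-IIlo cells without lactate, and 2 and 2 with it, near the shares of all genes given above. In fresh cells 5 of 18 were lower and 2 higher. The ubiquitin ligase gene Siah2 was lower in MHC-IIlo cells both fresh (-0.82 ± 0.08) and after no-lactate culture (-0.69 ± 0.15).

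Ddit4 is also a target of ATF4, the factor of the amino acid and stress response, and so the other ATF4 targets are given. Of 17 tested in fresh cells, 6 were lower in MHC-IIlo cells and none higher, against 15.2% and 14% of all genes, led by Slc7a5 (-1.28 ± 0.10). Of 18 tested after culture without lactate, 9 were lower and none higher, against 11.6% and 9.20% of all genes, led by the cystine transporter gene Slc7a11 (-3.17 ± 0.33, adjusted p = 6.05e-07). With lactate 4 of the 18 were lower, against 13.3% of all genes. Lactate raised 1 of the 18 in MHC-IIlo cells, Slc7a11 (1.49 ± 0.31, adjusted p = 0.024). That call was not tested with any library left out. Culture raised 10 of 18 and lowered 4 in MHC-IIhi cells, against 31.6% and 30.4% of all genes. In MHC-IIlo cells it raised 5 and lowered 2, against 27.6% and 29.9%, so that the share raised was that of all genes. The genes that rose were led by Ddit3 (3.58 ± 0.29 and 2.97 ± 0.29), while Ddit4 fell in MHC-IIlo cells as given above. Their part in the Ddit4 result was not tested.

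Beside these results, the marker lists of other cell types moved as follows, and their part in the results was not tested. Neutrophil marker sums were 295 to 674 CPM in fresh MHC-IIhi and 1103 to 1881 in fresh MHC-IIlo cells (6 of 7 tested higher), with Camp at 0 in both. They were 735 to 1056 and 776 to 1041 CPM after culture without lactate (1 of 4 tested higher), and 1553 to 2347 and 599 to 1717 with it (none of 4), where Ly6g and Ngp were at 0 in both. Epithelial marker sums were 486 to 619.7 CPM in fresh MHC-IIhi and 132 to 304 in fresh MHC-IIlo cells, where Epcam and Krt18 were at 0, and at most 96.3 CPM in any cultured library. Of the 6 epithelial markers only 2 had enough counts to be tested in fresh cells, and 1 was called lower in MHC-IIlo cells. Fibroblast sums were at most 123 CPM in any library and with culture in MHC-IIlo cells 6 of 8 markers tested fell and 1 rose. Sums of T and NK cell markers were at most 17.9 CPM in any library, and those of B cell markers at most 60.4 CPM. With lactate, dendritic cell marker sums were 100.3 to 265 CPM in MHC-IIhi and 11.8 to 23.4 in MHC-IIlo cells. Endothelial sums were 104 to 128 and 93.6 to 120.0 CPM in fresh MHC-IIhi and MHC-IIlo cells and 348 to 626 and 314 to 386 after culture without lactate.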

How the data were processed

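RNA of 30 libraries was sequenced. The authors deposited raw counts of reads per gene and a table of FPKM. The tools listed in the submitters' processing notes are Trimmomatic, STAR and featureCounts, with GRCm38 as the genome build; versions and strand setting are not given in the sources used here. The FPKM values the authors deposited (13778 genes) give, once multiplied by gene length, 1 shared distribution in every library, so they served as an alternative only. Columns were matched to groups by their headers, and the cultured headers' numbers differ from those in the titles.

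Counts were tested with edgeR 4.0.16 (R 4.3.3), using filterByExpr by group, TMM scaling and the quasi-likelihood F test, with Benjamini-Hochberg adjustment over all genes tested and a threshold of 0.05. The fresh comparison was fitted on the 10 fresh libraries, comparisons among cultured cells on 20, and culture against fresh on the 20 libraries without lactate. CPM is counts over all counts of the library. Every library is given for genes called with an absolute log2 fold change of at least 1, and of other lists at most the 3 genes with the smallest p are named, except for a result not reported here. The 32 genes, the lists of pathway and marker genes and the tests were chosen with earlier results of these data known. The fits were tested on simulated data. Alternatives used DESeq2 1.42.0, limma 3.58.1, and other filters, scalings and sets of libraries. The labels call the libraries biological replicates, and p-values measure the spread between them. In all 60 pairs, libraries of 1 group differed by more than sampling noise. Exons were taken from GENCODE.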

Additional observations from a re-analysis of the deposited data

Results flagged for a closer look

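A library stood far from the other 4 of its group in 12 of the 192 sets of 5 libraries (32 genes in 6 groups), where chance gives about 1 in 20. Of these, 8 were in lactate MHC-IIlo 5, each the highest of its group: Ak4 at 46.1 CPM, Ddit4 at 35.9, Fam162a at 67.0, Hif1a at 427, Kdm3a at 89.4, Ndrg1 at 283, P4ha2 at 33.6 and Vhl at 46.7. The same library had the lowest macrophage marker sum of all 30 (6216 CPM). It also had a scaling factor of 1.28 over all 30 libraries, which CPM does not use, so its values read higher here than after that scaling. The part of the marker sum and of the scaling in the 8 values was not tested. The other 4 were in fresh libraries: Egln1 at 185 CPM in MHC-IIlo 4, Hif1an at 29.2 in MHC-IIhi 1, Higd1a at 34.2 in MHC-IIhi 4, each the highest of its group, and Vldlr at 0.714 in MHC-IIlo 3, the lowest.

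The change with no-lactate culture differed between the subsets in 21 genes, by the test of the difference itself (edgeR's quasi-likelihood test, adjusted p under 0.05). As log2 fold change in MHC-IIlo minus that in MHC-IIhi cells, it was 1.56 for Epas1 and 1.17 for Bhlhe40. Among regulators it was -0.99 for Hif1a, -1.02 for Egln1, -1.42 for Egln3 and -0.57 for Vhl. Among the mitochondrial genes it was -2.66 for Bnip3, -1.14 for Fam162a, -0.96 for Higd1a, -1.28 for Pdk1 and -1.86 for Ak4. Among the collagen and disulphide enzymes it was -1.11 for P4ha1, -2.30 for P4ha2, -0.52 for Plod1 and -2.17 for Ero1l. It was -1.02 for Mxi1, -0.58 for Kdm3a and -1.90 for Ankrd37 among the transcription and chromatin targets. For the secreted and stress targets it was -1.87 for Adm, -2.79 for Ddit4 and -1.82 for Ndrg1. Time in culture, cell number and lysis cannot be told apart in these values.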

How the results depend on the processing

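No called value reversed under any alternative run. Counts in this part include Vldlr where it was tested. The counts of lower genes after no-lactate culture against MHC-IIhi cells (16 to 20 over all alternatives, left-out libraries included) and with culture in MHC-IIlo cells (19 to 21) stayed within 1.5 times of 18 and 19, as did those of the culture by subset difference (17 to 22 lower, 2 higher). For lactate in MHC-IIhi cells and for the lactate by subset difference every alternative gave 0 genes. In fresh cells, all 30 libraries in 1 fit gave 5 higher and 2 lower genes in place of 11 and 5, and 3 lower genes were found with no filter on low counts and in all 3 fits of the FPKM table (limma trend on log2(FPKM + 1), on log2(FPKM + 0.1) and with no filter). Leaving out 1 library gave 2 to 4 lower genes. Higher in MHC-IIlo cells without lactate were 3 genes with limma voom and in the 3 FPKM fits, 2 with lactate MHC-IIlo 5 not in the fit, and 1 to 2 when 1 library was left out. With lactate these were 3 (voom), 2 (the 3 FPKM fits) and 1 to 2, and the lower genes numbered 10 to 19 as libraries were left out. For lactate in MHC-IIlo cells the higher genes were 6 with all 30 libraries in 1 fit, 6 with DESeq2, 12 with voom, 0 with FPKM and no filter, and 0 to 5 when 1 library was left out. The lower genes there were 2 with voom, 0 with log2(FPKM + 0.1), and 0 to 1 when 1 library was left out. The cause of these shifts was not tested. The share of all genes called in each alternative is not given here, so these counts show only how the calls shift.

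Replicate numbers did not pair the samples by the rule used (all correlations of same-numbered deviations over 0.10): they ran from 0.07 to 0.50 between fresh subsets, -0.02 to 0.27 without lactate, -0.04 to 0.48 with lactate, -0.32 to 0.44 between lactate and no lactate in MHC-IIhi and 0.05 to 0.34 in MHC-IIlo cells. Between fresh subsets, between subsets with lactate, and between lactate and no lactate in MHC-IIlo cells, 4 of 5 samples correlated best with their own number, against 2 of 4 in the other pairs of groups. In the former pairs of groups 4 of 5 correlations were also over 0.10. Missing the rule thus does not show that the samples were unpaired. With the replicate block, 18 genes were called higher in fresh MHC-IIlo cells (Hif1a, Arnt, Egln1, Cited2, Ero1l, Rora and Hilpda beside the 11), 3 higher in each cultured subset comparison, and 9 higher and 2 lower with lactate in MHC-IIlo cells. The shares of all genes called with the block are not given here, so these counts cannot be set against the shares without it. A block nested within fresh and cultured libraries, an alternative chosen after seeing the data, gave 22 lower genes and 2 higher for the culture by subset difference. Depth was 16913250 counts or more per library and limits mainly Vldlr and Epas1, whose levels were a few CPM or less in most groups.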

Other observations

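Some of the 32 genes varied by library number in both fresh subsets. Plod2 was at 14.1, 26.5, 29.8, 9.25 and 7.88 CPM in fresh MHC-IIhi and 10.2, 30.2, 30.7, 10.6 and 9.34 in fresh MHC-IIlo libraries 1 to 5, high in numbers 2 and 3 of both. Adm was at 13.1, 22, 29.4, 17.6 and 12.1 CPM and 12.7, 27, 28.8, 19.9 and 12.1, again high in numbers 2 and 3. Hilpda was at 149, 95.0, 153, 282 and 218 CPM and 207, 166, 201, 377 and 278, and Cited2 at 87.0, 74.1, 86.1, 107 and 113 CPM and 92.0, 81.0, 92.4, 139.9 and 141, both high in numbers 4 and 5. In these 4 genes the spread among libraries of 1 subset exceeded the difference between the subsets' means. These patterns were chosen after their values were seen, and no test was made.

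Rora, a nuclear receptor, was at 6.91, 4.02, 3.32, 7.57 and 7.73 CPM in fresh MHC-IIhi and 7.57, 6.41, 8.76, 13.4 and 19 in fresh MHC-IIlo libraries. In no-lactate culture it was at 8.06 to 12.8 CPM in MHC-IIhi and 9.89 to 16 in MHC-IIlo libraries.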
